A study of Xenopus laevis with 39 samples.

Results

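Neuregulin 3 and the ErbB receptors 2, 3 and 4 were followed across all 39 RNA sequencing libraries of a Xenopus laevis olfactory series, 13 groups of 3 libraries each. Members were taken by gene symbol alone from the authors' gene tables. The frog is allotetraploid, so most genes have a copy on an L and on an S chromosome, called homeologs, and these were kept apart. Of the 6 symbols sought, 4 had entries, giving 8 genes of 37223: nrg3.L, nrg3.S, erbb2.L, erbb2.S, erbb3.L, erbb3.S, erbb4.L and erbb4.S. All 8 had enough reads for a test in every comparison, and nrg1 and nrg2 were not analysed here. The copy nrg3.S had been chosen by its measured levels across the groups in earlier results of these data, so its values are given as a description with no test. The other 7 members were tested together with every other gene that passed a filter on low counts. Shares and medians given for all genes refer to the genes that passed it, as does the adjustment of p-values.

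The groups were whole noses of postmetamorphic adults at stage 66, whole noses of premetamorphic larvae 2 days, 1 week and 7 weeks after transection, noses of larvae exposed for 5 h to amino acids at doses labelled 200 and 1000, and untreated larval noses as their control. The unit of the dose is incomplete in the labels. Principal cavity, the main epithelium of the larval nose, and vomeronasal organ (VNO), part of the accessory olfactory system, were separate larval samples, and the tissue field of the VNO names it olfactory lobe. Olfactory bulbs, the brain target of the nose, came from larvae 2 days, 1 week and 7 weeks after transection and from untreated larvae. The labels give neither strain nor age in days, and they name no time-matched control: each tissue has 1 untreated larval group that serves all of its comparisons, so growth after surgery and transection cannot be told apart. They also do not say whether libraries came from separate animals, so p-values measure the spread between libraries only.

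Neuregulins are growth factors with an EGF-like domain that bind ErbB receptor tyrosine kinases, and most are made as membrane proteins that proteases can cleave. ErbB3 and ErbB4 bind neuregulins, ErbB3 has little kinase activity of its own, and ErbB2, which has no known ligand, is the partner that pairs with them. In mammals NRG3 binds ErbB4 and is made mainly by neurons, and neuregulin signalling through ErbB2 and ErbB3 directs Schwann cell growth and myelination. Olfactory axons are wrapped by ensheathing glia, which share many genes with Schwann cells.

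The libraries held 25.82 to 180.5 M reads assigned to genes (M, 1e6; median library 69.66 M), and the shallowest was a 7-week nose. Values of 1 gene between libraries are given as CPM, the counts per 1e6 reads on edgeR's TMM-scaled library sizes, and levels between genes as TPM, the deposited transcript abundances per length scaled to a fixed total. Markers of olfactory receptor neurons summed to 228.3 to 3902 TPM in nose libraries and to 35.94 to 75.9 TPM in bulb libraries. Markers of bulb projection neurons summed to 2.60 to 51.1 TPM in nose libraries and to 271.7 to 1152 TPM in bulb libraries. Muscle markers were uneven between libraries, at 71.5 to 2721 TPM in control noses and 25.9 to 2028 TPM in 2-day noses. They summed to 11.99 to 19.6 TPM at dose 200 and to 9.22 to 12.1 TPM at dose 1000. Pan-neuronal markers summed to 737.5 to 858 TPM in control noses, 184.8 to 237.1 at dose 200 and 118.8 to 152.9 TPM at dose 1000. In that order proliferation markers summed to 371.4 to 523, 78.8 to 84.7 and 74.7 to 86.9 TPM. Basal and epithelial markers summed to 6642 to 9016, 3173 to 4460 and 3420 to 4006 TPM. Leukocyte markers went the other way, at 95.2 to 214.3, 272.4 to 328.2 and 203.8 to 277.2 TPM, overlapping at dose 1000. The part of muscle and of these markers in the comparisons with control noses was not tested. On the TPM scale the median gene was shifted by more than 0.1 (log2) in 11 of 14 comparisons, from -0.75 in noses at 7 weeks to 0.24 between principal cavity and VNO, so directions are given relative to the median gene on the CPM scale. In these bulk samples, fewer cells of a type and less RNA per cell cannot be told apart.

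The ligand copy nrg3.S spanned a 117-fold range of group mean CPM, the widest among the 8 members. The 7-week transected noses had the highest mean, 90.3 ± 65.8 CPM (SD, n = 3), with 28.6, 82.7 and 159.6 CPM in libraries 1, 2 and 3. Control larval noses had the lowest, 0.764, 0.889 and 0.656 CPM, which rested on 32, 66 and 51 reads. The 7-week libraries all lay above every control nose library, and they also lay far from each other. Library 3 had the fewest genes with reads of all 39 libraries, 31323, at 27.19 M reads. Libraries 1 and 2 had 34253 and 33396 genes with reads, at 25.82 and 84.24 M reads. The part of depth and of genes detected in these values was not tested.

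After transection nrg3.S stood further above the controls at each later time in nose. At 2 days nrg3.S had 2.37, 4.85 and 3.99 CPM in transected noses, against the 0.656 to 0.889 CPM of control noses. At 1 week the transected noses had 15.0, 20.1 and 18.2 CPM. The log2 fold changes were 2.28 at 2 days, 4.53 at 1 week and 6.87 at 7 weeks, or 4.85-fold, 23.0-fold and 117-fold. None of the transected nose libraries overlapped with the control noses. Without library 3 of the 7-week noses the log2 fold change was 6.20, and the difference between 7 weeks and 1 week was 1.63 without it, against 2.35 with it.

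Both amino acid groups also stood above the control noses. Noses exposed at dose 1000 had 48.4, 38.9 and 55.9 CPM of nrg3.S, and noses at dose 200 had 37.7, 32.9 and 37.0 CPM. Every exposed library lay far above the 0.656 to 0.889 CPM of control noses. In CPM the 2 doses were apart by a small margin, 37.7 at the top of dose 200 and 38.9 at the bottom of dose 1000. In TPM they overlapped, with 1.369 to 1.799 TPM at dose 200 and 1.549 to 2.035 TPM at dose 1000. Log2 fold changes against control noses were 5.95 for dose 1000 and 5.53 for dose 200. The exposure lasted 5 h, and the exposed noses lay above all 1-week transected noses. The comparisons of exposed and of transected noses share the same 3 control libraries. The labels name no control group handled together with the exposed larvae. Exposure and other differences between these groups, such as handling, therefore cannot be told apart.

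In the bulb nrg3.S was already high without injury. Control noses had 0.656 to 0.889 CPM, against 24.5, 25.8 and 27.1 CPM in untreated larval bulbs, a log2 difference of -5.01 or a 32.2-fold lower level in noses. Transected bulbs had 30.5, 32.5 and 32.6 CPM at 2 days, 42.4, 43.4 and 40.8 CPM at 1 week and 39.7, 61.6 and 59.8 CPM at 7 weeks. Each of these bulb libraries lay above every untreated bulb library. The log2 fold changes in bulb were 0.21, 0.63 and 1.05 in that order of time, against the 2.28, 4.53 and 6.87 of the nose.

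The level was uneven in the remaining groups. Adult noses had 4.33, 3.25 and 1.11 CPM of nrg3.S, all above the control larval noses (log2 fold change 1.90). Principal cavity had 1.01, 1.05 and 7.50 CPM, against 1.68, 0.777 and 1.30 CPM in VNO, and the groups overlapped. The log2 difference of 1.35 between principal cavity and VNO turned to -0.28 when principal cavity library 3 was left out. In the order of group means, 7-week noses, 7-week bulbs, dose-1000 noses and 1-week bulbs followed each other with overlapping libraries. Between neighbours in this order, gaps without overlap lay below 1-week bulbs, dose-200 noses, 2-day bulbs, untreated bulbs and 1-week noses. Groups further apart could still overlap: 7-week nose library 1, at 28.6 CPM, lay below every dose-200 nose and every 2-day bulb. The 5 lowest groups, from 2-day noses down to control noses, overlapped with their neighbours.

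**Figure D1:**
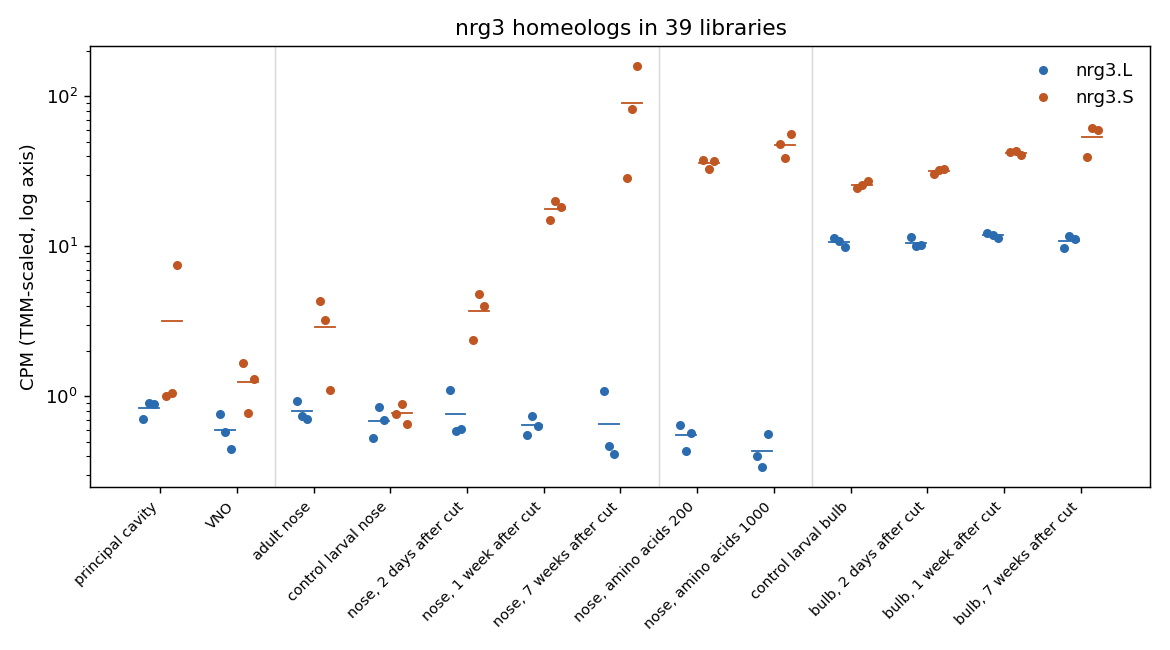
Normalised CPM of nrg3.L and nrg3.S in all 39 libraries on a log axis, by group; points are libraries and bars are means of 3. The S copy ran from 0.656 CPM in a control nose to 159.6 CPM in a 7-week nose, while the L copy was at most 1.10 CPM in nose libraries and at least 9.78 CPM in bulb libraries.

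The other copy, nrg3.L, marked the bulb and did not follow its homeolog in the nose. It had 0.525, 0.849 and 0.695 CPM in control noses, against 11.4, 10.8 and 9.94 CPM in untreated bulbs. No library overlapped, and the level was 14.6-fold lower in noses (log2 difference -3.87 ± 0.25 SE, adjusted p = 3.14e-12). Adjusted p-values are from edgeR's quasi-likelihood test with Benjamini-Hochberg adjustment over all genes, and a gene was called where its adjusted p was under 0.05.

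After transection nrg3.L was not called in either tissue at any time. At 7 weeks it had 1.09, 0.466 and 0.412 CPM in transected noses, overlapping with the control noses (log2 fold change -0.12 ± 0.38, adjusted p = 0.82, interval of 2 SE -0.89 to 0.65). At 7 weeks the bulbs had 9.78, 11.8 and 11.2 CPM, which overlapped with untreated bulbs (0.03 ± 0.09, adjusted p = 0.783, interval -0.15 to 0.21). Markers of bulb projection neurons summed to 2.60 to 19.5 TPM in the 7-week noses and to 16.2 to 22.6 TPM in control noses. Of the 12 tested, 5 were called lower and 2 higher in 7-week noses. The median gene was itself at -0.75 (log2) there on the TPM scale.

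The balance of the copies shifted accordingly. Per unit of length nrg3.S carried 85.3 ± 0.406% of nrg3 TPM in 1-week noses, 93.6 ± 7.81% in 7-week noses and 19.3 ± 3.59% in control noses (SD, n = 3 each). The exposed noses gave 95.9 ± 0.403% at dose 1000 and 93.2 ± 0.858% at dose 200. In bulbs the share was 50.3 ± 3.80% at 7 weeks and 33.6 ± 2.65% in untreated bulbs. The gene model of nrg3.S was 4.78 times as long as that of nrg3.L, so CPM and TPM rank the copies differently. Summed over both copies, nrg3 came to 2.79 ± 1.69 TPM in 7-week noses, 4.62 ± 1.44 TPM in 7-week bulbs, 4.96 ± 0.11 TPM in untreated bulbs and 0.207 ± 0.0686 TPM in control noses. Reads could have been split between near-identical copies in ways these tables do not record.

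**Figure D2:**
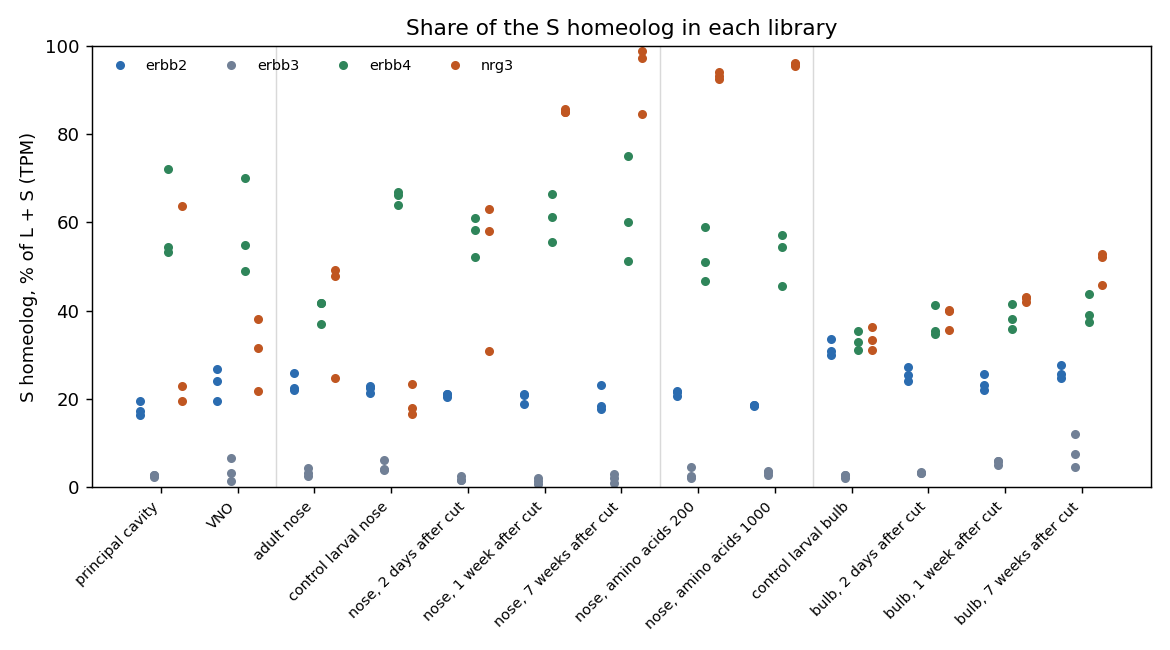
Share of each gene's TPM that the S copy carried, in percent, by group, where points are libraries. For nrg3 the share was 93.6% in 7-week noses and 19.3% in control noses. Group means ran from 17.7 to 31.5% for erbb2, from 1.41 to 8.06% for erbb3 and, for erbb4, from 33.1% in untreated bulbs to 65.7% in control noses.

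Among the receptors, the L copies of erbb2 and erbb3 carried most of the RNA in noses. In control noses the levels per length were 16.7 ± 3.08 TPM for erbb2.L, 4.79 ± 0.99 TPM for erbb2.S and 3.29 ± 0.94 TPM for erbb3.L. The remaining receptor copies were far lower there, 0.160 ± 0.0423 TPM for erbb3.S, 0.0967 ± 0.0158 TPM for erbb4.S and 0.0504 ± 0.00694 TPM for erbb4.L. In untreated bulbs erbb2.L also led the receptors with 5.21 ± 0.11 TPM, and erbb4.L had 0.212 ± 0.0303 TPM.

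Between tissues, 6 of 7 tested members were called in control noses against untreated bulbs, where 74.8% of all genes were called. The co-receptor copies were higher in noses: erbb2.L had 68.7, 74.1 and 65.4 CPM in noses, against 17.2, 17.4 and 16.0 CPM in bulbs. Its log2 difference was 2.09 ± 0.12 (SE, adjusted p = 7.15e-13), and erbb2.S differed by 1.40 ± 0.15 (adjusted p = 1.25e-08). The ligand-binding erbb3.L had 25.5, 31.5 and 23.1 CPM in noses, against 5.21, 4.32 and 5.49 CPM in bulbs (2.47 ± 0.16, adjusted p = 5.27e-12). Noses and bulbs did not overlap for any of the 7 tested members, the uncalled erbb4.S included, so this does not set these 3 copies apart. The share of all genes without overlap is not given here.

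The 2 ErbB4 copies did not share that pattern. The level of erbb4.L was lower in noses, 0.955, 0.943 and 0.888 CPM against 2.59, 3.11 and 3.36 CPM in bulbs (log2 difference -1.65 ± 0.28, adjusted p = 1.39e-05). For erbb4.S the noses had 2.70, 2.94 and 2.86 CPM, against 2.27, 2.43 and 2.42 CPM in bulbs, and it was not called (0.31 ± 0.21, adjusted p = 0.179). The low erbb3.S was higher in noses, 1.17, 1.59 and 1.75 CPM against 0.121, 0.143 and 0.176 CPM in bulbs (3.40 ± 0.46, adjusted p = 5.93e-07). Noses held more RNA of erbb2 and of erbb3, and bulbs more of nrg3.L and erbb4.L, on the CPM scale.

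**Figure D3:**
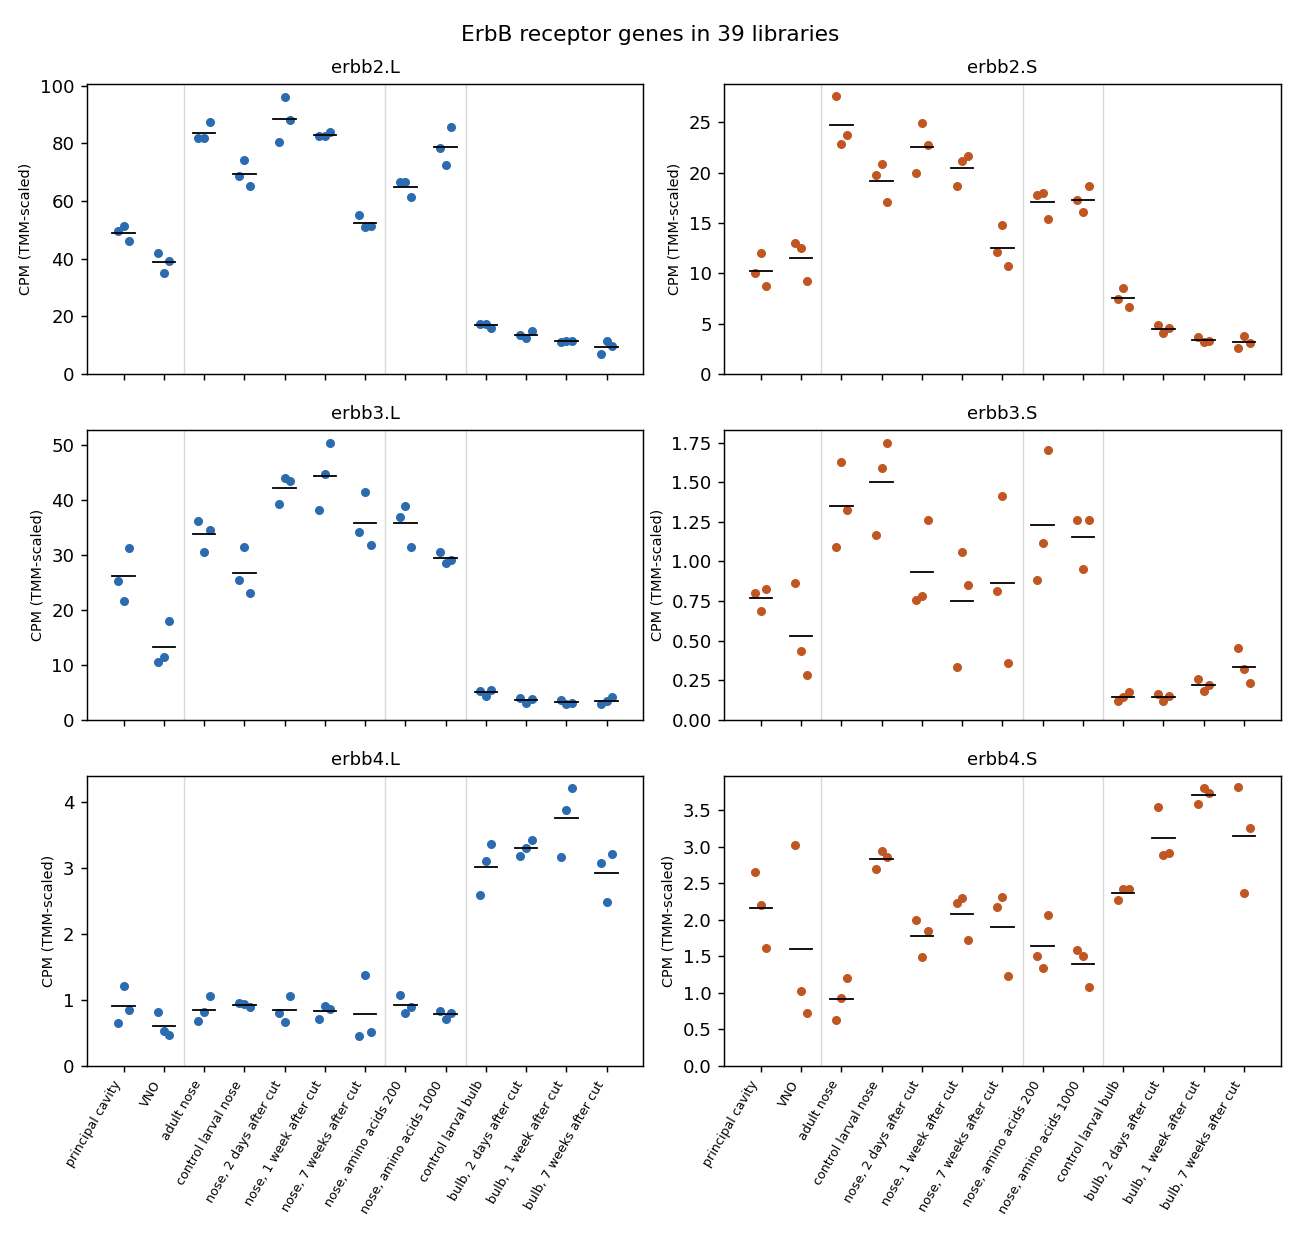
Normalised CPM of the 6 ErbB receptor copies in all 39 libraries, by group, where points are libraries and bars are means of 3. Nose libraries lie above bulb libraries for erbb2.L, erbb2.S and erbb3.L, and below them for erbb4.L.

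In transected noses erbb3.L was higher at every time. At 2 days it had 39.3, 44.0 and 43.4 CPM, at 1 week 38.3, 44.7 and 50.5 CPM and at 7 weeks 34.3, 41.5 and 31.8 CPM, against 25.5, 31.5 and 23.1 CPM in control noses. All 9 transected libraries lay above the 3 control libraries, the lowest at 7 weeks by a small margin. The log2 fold change was 0.66 ± 0.13 at 2 days (adjusted p = 0.00116), 0.74 ± 0.13 at 1 week (adjusted p = 0.000103) and 0.43 ± 0.13 at 7 weeks (adjusted p = 0.00799). The 7-week call ended without control library 3 (adjusted p = 0.0546) and in a model of all 39 libraries (adjusted p = 0.0815), and on the TPM scale the sign turned, with a log2 ratio of -0.26 where the median gene was at -0.75.

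The co-receptor first rose and then fell. For erbb2.L the transected noses had 80.6, 96.3 and 88.1 CPM at 2 days, 82.6, 82.6 and 83.9 CPM at 1 week and 55.2, 50.9 and 51.4 CPM at 7 weeks, against 68.7, 74.1 and 65.4 CPM in control noses. Libraries at 2 days and 1 week lay above the controls and those at 7 weeks below them. The log2 fold changes were 0.34 ± 0.09 at 2 days (adjusted p = 0.00823), 0.26 ± 0.09 at 1 week (adjusted p = 0.022) and -0.40 ± 0.09 at 7 weeks (adjusted p = 0.000765). The 2-day call ended without 2-day library 2 (adjusted p = 0.0578). The 1-week call ended without control library 1 (adjusted p = 0.0563), control library 3 (0.0946), 1-week library 2 (0.0512) or 1-week library 3 (0.0608).

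At 7 weeks erbb2.S fell as well, with 12.1, 14.8 and 10.8 CPM in transected noses, against 19.7, 20.9 and 17.1 CPM in control noses (-0.60 ± 0.13, adjusted p = 0.000584). It was not called at 2 days (0.23 ± 0.12, adjusted p = 0.215) or at 1 week (0.09 ± 0.12, adjusted p = 0.588). Against 1 week, the 7-week noses were lower in erbb2.L (-0.66 ± 0.09, adjusted p = 1.92e-05) and in erbb2.S (-0.70 ± 0.13, adjusted p = 0.000379), and no libraries of the 2 times overlapped for either copy. The ligand-binding erbb3.L was not called between those times (-0.30 ± 0.13, adjusted p = 0.0687).

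The ErbB4 copies and erbb3.S were not called by edgeR with all libraries in transected noses. For erbb4.S the transected noses had 2.00, 1.495 and 1.85 CPM at 2 days, against 2.70, 2.94 and 2.86 CPM in control noses, with no overlap (-0.68 ± 0.26, adjusted p = 0.0763), and DESeq2 called it (adjusted p = 0.0391). It was also below the controls without overlap at 1 week (-0.44 ± 0.26, adjusted p = 0.192) and at 7 weeks (-0.54 ± 0.27, adjusted p = 0.104). The level of erbb3.S was 0.334 to 1.06 CPM at 1 week, against 1.17 to 1.75 CPM in control noses (-1.01 ± 0.41, adjusted p = 0.056), and it was called by DESeq2 and, by edgeR, without 1-week library 2. Leaving out 7-week library 2 raised the number of members called at 7 weeks to 5, the additional ones being erbb4.L and erbb3.S.

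Counted together, 2 of 7 members were called at 2 days in nose, both higher, where 20.2% of all genes were called. At 1 week 2 of 7 were called higher, against 39.7% of all genes. At 7 weeks 1 was higher and 2 lower, against 48.5% of all genes, and between 7 weeks and 1 week 2 were lower, against 33.5%. The share of members called was near the share of all genes at each of these times. Markers of Schwann cells and ensheathing glia summed to 403.2 to 434.1 TPM in 2-day noses, 235.8 to 276.9 TPM in 1-week noses, 139.8 to 171.2 TPM in 7-week noses and 379.1 to 452.3 TPM in control noses. Leukocyte markers summed to 283.3 to 317.2 TPM at 2 days, 276.3 to 313.3 TPM at 1 week, 92.6 to 119.3 TPM at 7 weeks and 95.2 to 214.3 TPM in control noses. Of the 10 tested, 8 were called higher at 2 days (5 without 2-day library 2), 7 at 1 week and 3 at 7 weeks, where 2 were called lower by edgeR (0 without control library 2). Olfactory receptor neuron markers summed to 324.3 to 549.5 TPM, 228.3 to 247.8 TPM and 232.3 to 434.8 TPM at those times and to 1018 to 1132 TPM in control noses, and 12 (6 without 2-day library 3), 13 and 10 of 15 were called lower. Each marker of these 3 lists had reads in all 4 groups. On the TPM scale the median gene was itself at 0.04 (log2) at 2 days, -0.20 at 1 week and -0.75 at 7 weeks. The part of these markers in the receptor changes was not tested.

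In bulbs both erbb2 copies and erbb3.L fell after transection. The level of erbb2.S was 4.83, 4.11 and 4.53 CPM at 2 days, 3.70, 3.14 and 3.31 CPM at 1 week and 2.58, 3.75 and 3.07 CPM at 7 weeks, against 7.44, 8.52 and 6.64 CPM in untreated bulbs. Every transected bulb lay below every untreated one. Log2 fold changes were -0.84 ± 0.14 (adjusted p = 0.000403), -1.23 ± 0.14 (adjusted p = 1.2e-05) and -1.26 ± 0.14 (adjusted p = 5.24e-06) in that order of time.

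The L copies moved the same way. For erbb2.L transected bulbs had 13.4, 12.5 and 14.8 CPM at 2 days, 11.1, 11.6 and 11.4 CPM at 1 week and 6.93, 11.3 and 9.63 CPM at 7 weeks, against 17.2, 17.4 and 16.0 CPM in untreated bulbs. No transected library reached an untreated one. The log2 fold changes were -0.41 ± 0.13 (adjusted p = 0.0197), -0.65 ± 0.13 (adjusted p = 0.000847) and -0.86 ± 0.13 (adjusted p = 6.71e-05). The 2-day call ended without 2-day library 1 (adjusted p = 0.0555), 2-day library 2 (0.0736), untreated library 1 (0.0616) or untreated library 2 (0.061).

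For erbb3.L the transected bulbs had 3.95, 3.02 and 3.89 CPM at 2 days, 3.58, 2.95 and 3.09 CPM at 1 week and 2.87, 3.42 and 4.25 CPM at 7 weeks, against 5.21, 4.32 and 5.49 CPM in untreated bulbs. The groups did not overlap at any of the 3 times. It fell by 0.56 ± 0.16 on the log2 scale at 2 days (adjusted p = 0.0124), by 0.72 ± 0.16 at 1 week (adjusted p = 0.00203) and by 0.51 ± 0.16 at 7 weeks (adjusted p = 0.0129). The 2-day call ended without 2-day library 2 (adjusted p = 0.0583).

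A pair of low receptor copies rose in bulbs. For erbb4.S transected bulbs had 3.59, 3.81 and 3.74 CPM at 1 week, against 2.27, 2.43 and 2.42 CPM in untreated bulbs, with no overlap (0.57 ± 0.17, adjusted p = 0.0126, or 0.14 in a model of all 39 libraries). At 7 weeks it had 3.82, 2.38 and 3.26 CPM and overlapped with untreated bulbs (0.41 ± 0.17, adjusted p = 0.0484). That call ended without 7-week library 1 (adjusted p = 0.197) or 3 (0.1), and without untreated library 1 (0.117), 2 (0.0917) or 3 (0.086), with no low-count filter (0.0613) and in a model of all 39 libraries (0.258). On the TPM scale it turned to a log2 ratio of -0.20, where the median gene was at -0.59. The copy erbb3.S had 0.451, 0.32 and 0.236 CPM at 7 weeks, against 0.121, 0.143 and 0.176 CPM in untreated bulbs (1.16 ± 0.33, adjusted p = 0.00803). It rested on 28, 30 and 29 reads at 7 weeks and on 10, 16 and 14 reads in untreated bulbs.

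In bulbs 3 of 7 members were called at 2 days, all lower, where 46.2% of all genes were called. At 1 week 3 were lower and 1 higher, against 56% of all genes, and at 7 weeks 3 were lower and 2 higher, against 65.9%. Between 7 weeks and 1 week none of the 7 was called by edgeR or by DESeq2, against 38.6% of all genes by edgeR, and 0 of them had an unadjusted p under 0.05 by edgeR. Leaving out 7-week bulb library 2 gave 1 call there. Markers of Schwann cells and ensheathing glia summed to 610.4 to 796.1 TPM in 7-week bulbs and to 2836 to 3145 TPM in untreated bulbs, 17 of the 26 tested were called lower and 3 higher, and none of the markers lacked reads in these groups. On the TPM scale the median gene was itself at -0.59 (log2) in 7-week bulbs. The glial markers summed to 1014 to 1198 TPM in 2-day bulbs and to 1149 to 1405 TPM in 1-week bulbs. Pan-neuronal markers were also lower in 7-week than in untreated bulbs, at 760.3 to 1083 against 4294 to 4547 TPM. Proliferation markers were lower too, at 61.8 to 80.4 against 564 to 834.5 TPM. Leukocyte markers were higher, at 28.03 to 43.65 against 12.17 to 13.65 TPM. The part of any of these markers in the fall of erbb2.L, erbb2.S and erbb3.L was not tested.

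**Figure D4:**
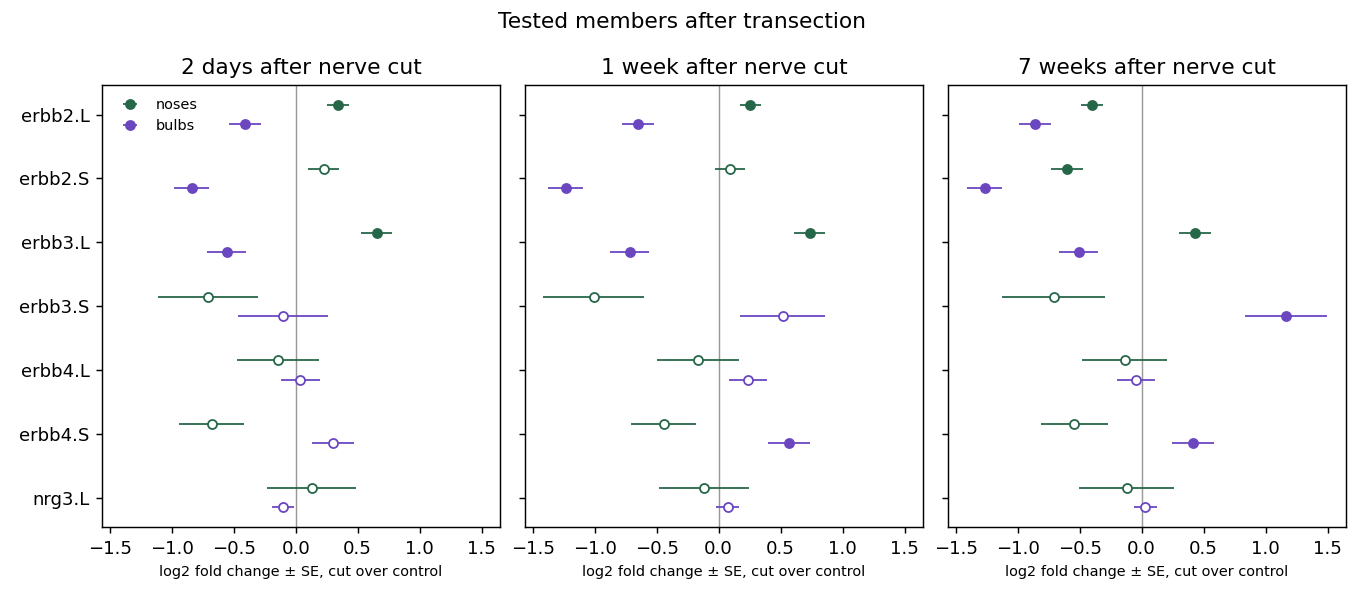
Log2 fold changes of the 7 tested members after transection against the untreated larvae of the same tissue at 2 days, 1 week and 7 weeks. Noses are drawn above bulbs, error bars are 1 SE, and filled points were called at an adjusted p under 0.05. In noses erbb3.L lies above 0 at each time, while in bulbs both erbb2 copies and erbb3.L lie below 0.

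The receptors responded differently in the 2 tissues. The difference of the log2 fold changes, nose minus bulb, was tested in 1 model of noses and bulbs, and 4 of 7 members were called at 2 days, where 16.1% of all genes were called. Another 4 calls were made at 1 week, against 25.4% of all genes, and 4 at 7 weeks, against 35.7%. For erbb3.L the difference was 1.10 ± 0.22 at 2 days (adjusted p = 0.00167), 1.38 ± 0.22 at 1 week (adjusted p = 9.83e-05) and 0.91 ± 0.22 at 7 weeks (adjusted p = 0.00324). Its level was higher in transected noses and lower in transected bulbs than in the untreated larvae of the same tissue at all 3 times.

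For erbb2.S the difference was 0.96 ± 0.21 at 2 days (adjusted p = 0.00274), 1.26 ± 0.21 at 1 week (adjusted p = 0.000119) and 0.63 ± 0.21 at 7 weeks (adjusted p = 0.0226). The last call ended without 7-week bulb library 1 (adjusted p = 0.0565), untreated bulb library 2 (0.0674), control nose library 3 (0.0612) or 7-week nose library 2 (0.0701). For erbb2.L it was 0.64 ± 0.17 at 2 days (adjusted p = 0.0119) and 0.84 ± 0.17 at 1 week (adjusted p = 0.000857), and it missed the threshold at 7 weeks (0.43 ± 0.17, adjusted p = 0.0528).

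The sign was opposite for erbb4.S, whose nose-minus-bulb difference was -1.09 ± 0.29 at 2 days (adjusted p = 0.0139), -1.08 ± 0.29 at 1 week (adjusted p = 0.0093) and -0.98 ± 0.30 at 7 weeks (adjusted p = 0.0142). In a model of all 39 libraries these calls ended, at adjusted p = 0.178, 0.115 and 0.0865, and the 2-day call also ended without 2-day nose library 2 (0.0515). At 7 weeks erbb3.S gave -1.92 ± 0.62 (adjusted p = 0.0188). It rested on 18, 94 and 7 reads in 7-week noses and on 10, 16 and 14 reads in untreated bulbs. In 7-week noses against control noses it was not called (-0.71 ± 0.42, adjusted p = 0.167). For nrg3.S the differences, given as a description, were 1.96, 3.83 and 5.79 in order of time.

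Adult noses differed from larval noses in 4 of 7 members, where 45.3% of all genes were called. The clearest was erbb4.S, with 0.633, 0.935 and 1.20 CPM in adults, against 2.70, 2.94 and 2.86 CPM in larvae. The libraries did not overlap, and the log2 fold change was -1.61 ± 0.27 (adjusted p = 7.31e-05), a 3.04-fold lower level. Untreated larval noses had the highest mean of erbb4.S among nose and chamber groups, 2.83 CPM. Every adult, transected and exposed whole-nose library lay below all of these control libraries, which those comparisons share. A lower erbb4.S level than in control noses was thus not particular to adults.

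The other 3 calls in adults were small. For erbb2.L adults had 81.9, 82.0 and 87.4 CPM, against 68.7, 74.1 and 65.4 CPM in larvae (0.27 ± 0.09, adjusted p = 0.0134). For erbb2.S adults had 27.6, 22.9 and 23.8 CPM, against 19.7, 20.9 and 17.1 CPM in larvae (0.37 ± 0.12, adjusted p = 0.0207). For erbb3.L adults had 36.3, 30.5 and 34.6 CPM, against 25.5, 31.5 and 23.1 CPM in larvae (0.34 ± 0.13, adjusted p = 0.0311). Only erbb3.L of these overlapped between the stages. The erbb2.L call ended without larval library 3 (adjusted p = 0.0657) and the erbb2.S call without adult library 1 (0.0894) or larval library 3 (0.108). The erbb3.L call ended without adult library 1 (adjusted p = 0.0998) or 3 (0.0693), without larval library 1 (0.0946) or 3 (0.163), and in a model of all 39 libraries (0.0794). Markers of Schwann cells and ensheathing glia summed to 648.7 to 1010 TPM in adult noses and to 379.1 to 452.3 TPM in larval noses, 19 of 26 were called higher and 3 lower (1 with RLE factors), and their part in these calls was not tested.

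Between the chambers of the larval nose, 1 of 7 members was called, where 15.2% of all genes were called. Principal cavity had 25.3, 21.7 and 31.3 CPM of erbb3.L, against 10.6, 11.5 and 17.95 CPM in VNO, without overlap (0.98 ± 0.24, adjusted p = 0.0295). The call ended without principal cavity library 1 (adjusted p = 0.0972) or 3 (0.0878), or VNO library 2 (0.116). For erbb2.L principal cavity had 49.5, 51.3 and 46.3 CPM, against 42.1, 35.1 and 39.04 CPM in VNO, which did not overlap but was not called (0.34 ± 0.14, adjusted p = 0.148). Glial markers summed to 255.5 to 354.8 TPM in principal cavity and to 99.6 to 152.9 TPM in VNO, and 9 of 26 were called higher in principal cavity with the other 17 not called. That count was 4 without principal cavity library 1 and 19 in a model of all 39 libraries, and the part of these cells in the erbb3.L difference was not tested. The Schwann cell myelin gene mpz.L averaged 41.3 ± 4.997 CPM in principal cavity and 4.54 ± 1.46 CPM in VNO (SD, n = 3 each, log2 difference 3.19 ± 0.26 SE, adjusted p = 0.000268).

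The tested members were also compared between exposed and control noses. At dose 1000 1 of 7 members was called, where 49.5% of all genes were called: erbb4.S had 1.59, 1.51 and 1.08 CPM, against 2.70, 2.94 and 2.86 CPM in control noses (-1.03 ± 0.27, adjusted p = 0.00305). At dose 200 2 of 7 were called, against 35.4% of all genes. There erbb4.S had 1.51, 1.34 and 2.07 CPM (-0.80 ± 0.26, adjusted p = 0.0225), below every control library. For erbb3.L noses at dose 200 had 36.9, 38.9 and 31.6 CPM, against 25.5, 31.5 and 23.1 CPM in control noses (0.42 ± 0.13, adjusted p = 0.0137), and the lowest exposed library only just cleared the highest control.

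Both dose-200 calls were sensitive to single libraries. The erbb4.S call ended without dose-200 library 1 (adjusted p = 0.0878) or 2 (0.114), without control library 2 (0.0652) or 3 (0.0545), and in a model of all 39 libraries (0.0656). The erbb3.L call ended without dose-200 library 2 (adjusted p = 0.0621), without control library 1 (0.0507) or 3 (0.0846), and in a model of all 39 libraries (0.0669). Between the doses 1 of 7 members was called, against 26.9% of all genes. That was erbb2.L, with 78.3, 72.5 and 85.7 CPM at dose 1000 and 66.6, 66.6 and 61.3 CPM at dose 200 (0.29 ± 0.09, adjusted p = 0.0146). The call ended without dose-1000 library 3 (adjusted p = 0.104), without dose-200 library 2 (0.129) or 3 (0.137), with RLE factors (0.0509) and in a model of all 39 libraries (0.272).

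The rest of the pathway was read from lists of other EGF-family ligands with their receptor, proteases that cleave neuregulins, intracellular relays, and regulators of ErbB receptors. Of the 17 other EGF-family genes tested in noses, 10 were called higher and 2 lower at dose 1000, with a list median log2 fold change of 0.79 against 0.02 for all genes, of which 49.5% were called. Without control library 1 the number called lower was 0 by edgeR. Epiregulin, ereg.S, averaged 15.2 ± 1.15 CPM at dose 1000 and 3.72 ± 2.99 CPM in control noses (2.02 ± 0.40 SE, adjusted p = 0.000321). Amphiregulin, areg.L, averaged 17.6 ± 3.46 CPM at dose 1000 and 5.99 ± 3.91 CPM in control noses (1.54 ± 0.38, adjusted p = 0.00258). Both are ligands of the EGF receptor in mammals, and they were also higher at dose 1000 than at dose 200, by 3.01 ± 0.42 for ereg.S (adjusted p = 2.48e-05) and by 2.10 ± 0.39 for areg.L (adjusted p = 0.00055). For both genes this difference was larger than that against control noses, so the fitted dose-200 level lay below the control level. The whole list summed to 38.9 to 41.5 TPM at dose 200, 92.6 to 132.7 TPM at dose 1000 and 36.2 to 83.5 TPM in control noses.

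At 7 weeks after transection 1 of the 17 was called higher in noses and 1 lower, with a list median of -0.11 against -0.08 for all genes, of which 48.5% were called. The number higher was 0 without control library 1, and the number lower was 0 without control library 3 and 4 without 7-week library 2. Between tissues 11 of 16 were higher and 2 lower in noses than in bulbs, with a list median of 2.36 against 0.10 for all genes, of which 74.8% were called, and without nose library 1 the number lower was 1. One of those lower in noses was egf.L, the EGF precursor, with 0.974 ± 0.376 CPM in noses and 51.8 ± 3.995 CPM in bulbs (-5.74 ± 0.42, adjusted p = 1.66e-10).

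Of the 11 proteases, 5 were called lower in noses at 1 week with the other 6 not called, and 6 were called lower at 7 weeks with the other 5 not called, with list medians of -0.24 and -0.43 against -0.06 and -0.08 for all genes. Those shares were near the 39.7% and 48.5% of all genes called at these times. The metalloprotease adam19.S, whose mouse counterpart cleaves neuregulin, averaged 4.02 ± 1.00 CPM in 7-week noses and 10.3 ± 0.536 CPM in control noses (-1.36 ± 0.21, adjusted p = 2e-05). The aspartyl protease bace1.L, which cleaves neuregulin in mice, averaged 4.73 ± 1.18 CPM in 7-week noses and 10.4 ± 0.775 CPM in control noses (-1.14 ± 0.15, adjusted p = 3.19e-06). In 7-week bulbs 6 of 11 were called lower and 5 were not called (median -0.35 against 0.00 for all genes), where 65.9% of all genes were called. Among them was adam10.L, with 43.8 ± 2.53 CPM, against 83.3 ± 1.52 CPM in untreated bulbs (-0.93 ± 0.07, adjusted p = 1.21e-07).

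Of the 32 intracellular relays, 11 were called higher and 11 lower in 7-week noses, with a median of -0.04 against -0.08 for all genes, and 7 were higher without control library 1; 48.5% of all genes were called there. In 7-week bulbs 3 were higher and 20 lower, with a median of -0.47 against 0.00 for all genes, of which 65.9% were called. The phosphatase ptpn11.S, which passes signals from receptor kinases to Ras, averaged 3.45 ± 0.20 CPM in 7-week bulbs and 10.6 ± 0.452 CPM in untreated bulbs (-1.62 ± 0.11, adjusted p = 7.38e-08). In 7-week noses the small GTPase hras.L averaged 3.84 ± 2.37 CPM, against 11.8 ± 1.68 CPM in control noses (-1.62 ± 0.26, adjusted p = 3.38e-05).

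Of 22 regulators of ErbB receptors tested in noses, 11 were called higher and 2 lower at 1 week (median 0.22 against -0.06 for all genes), 12 higher and 3 lower at 7 weeks (0.40 against -0.08), and 16 higher and 2 lower at dose 1000 (0.64 against 0.02). The number lower at 1 week was 4 without control library 1. Of all genes 39.7%, 48.5% and 49.5% were called in these comparisons. The membrane protein gene lrig3.L averaged 17.7 ± 0.51 CPM in 1-week noses, 18.1 ± 1.32 CPM in 7-week noses and 6.60 ± 1.54 CPM in control noses. Its log2 fold change was 1.46 ± 0.14 at 7 weeks (adjusted p = 6.92e-08), and in 7-week bulbs it was 1.35 ± 0.11 (adjusted p = 4.06e-07). The copy memo1.L, a mediator of ErbB2-driven cell motility in human cells, moved oppositely. It had 10.1 ± 2.49 CPM in 7-week noses and 33.4 ± 3.83 CPM in control noses (-1.71 ± 0.17, adjusted p = 1.04e-07). In 7-week bulbs memo1.L fell by 1.57 ± 0.09 on the log2 scale (adjusted p = 1.97e-08). At dose 1000 its log2 fold change against control noses was -1.73. The ubiquitin ligase rnf41.L, which promotes ErbB3 degradation in mammals, averaged 34.0 ± 1.76 CPM in 7-week bulbs and 13.7 ± 0.685 CPM in untreated bulbs (1.31 ± 0.08, adjusted p = 2.29e-08).

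Genes of Schwann cells and ensheathing glia, a lineage that depends on neuregulin signalling in mammalian nerve, had more members called lower than higher at 7 weeks in both tissues. In 7-week noses 11 of 26 were lower and 4 higher, with a median of -0.41 against -0.08 for all genes, and 7 were lower without 7-week library 2; 48.5% of all genes were called there. In 7-week bulbs the median was -0.83 against 0.00 for all genes, of which 65.9% were called. Exposed noses had low sums of these markers too, 169.7 to 186.8 TPM at dose 200 and 155.9 to 187.3 TPM at dose 1000. The sums were 139.8 to 171.2 TPM in 7-week noses and 379.1 to 452.3 TPM in control noses. On the TPM scale the median gene was at -0.22, -0.36 and -0.75 (log2) at dose 200, dose 1000 and 7 weeks. A level below the control noses was thus not particular to 7 weeks, and all use the same 3 control libraries. The myelin gene mpz.L averaged 9.96 ± 2.79 CPM in 7-week noses and 51.3 ± 13.9 CPM in control noses (-2.35 ± 0.25, adjusted p = 6.07e-07). At dose 1000 the log2 fold change of mpz.L against control noses was -2.44. Its homeolog mpz.S averaged 3.48 ± 1.41 CPM in 7-week bulbs and 103.8 ± 60.5 CPM in untreated bulbs (-4.90 ± 0.67, adjusted p = 6.57e-05). The peripheral myelin gene pmp2.S rose instead in noses, with 15.3 ± 1.73 CPM at 7 weeks and 5.87 ± 0.85 CPM in control noses (1.39 ± 0.19, adjusted p = 4.59e-06), and its 2-day log2 fold change was 2.94 ± 0.19 (adjusted p = 2.15e-08).

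Likeness of profile was measured as Pearson's r of log2(TPM + 1) over the 13 group means, as a description with no test. Candidates were 19822 named genes with a mean of at least 1 TPM in at least 1 group. Members, unnamed gene models and provisional LOC entries were left out of them. The groups share controls, tissues and depth. For nrg3.S the 3 most alike were tsn.L (r = 0.93), tat.S (0.93) and hemk1.L (0.92), all well short of the likeness found for its homeolog. For nrg3.L they were nlgn4x.L (0.9993), dpp6.S (0.9992) and znf536.S (0.9991), all high in bulbs and low in noses. The level of nlgn4x.L was 0.0774 TPM in control noses and 3.87 TPM in untreated bulbs. For erbb2.L they were bace2.S (0.98), synj2.L (0.98) and postn.S (0.98), and for erbb3.L snx5.S (0.99), ppfibp2-like.L (0.99) and rarg-like.1.L (0.99). For erbb2.S they were slc26a11.L (0.97), pcolce.S (0.97) and cdc42se1.L (0.97).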

How the data were processed

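For the 39 libraries, the submitters' processing notes name bcl2fastq 2.17.1.14, the aligner STAR 2.5 and the counter featureCounts (Subread 1.5.0). Genome build, annotation and strandedness: not given in the sources used here. The deposited raw counts entered every test, and the deposited TPM values, which the authors scaled by gene length, served for levels between genes, summed marker levels, likeness of profiles and a ratio between groups, never for a test. Of 37240 entries, 17 exact repeats were dropped, leaving 37223 genes. Columns were joined to groups by name, and their library numbers are not those of the sample titles.

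Counts were fitted in R 4.3.3 with edgeR 4.0.16 (limma 3.58.1): filterByExpr (minimum count 10, minimum total 15), TMM factors and the robust quasi-likelihood test, in 1 model each for 7 nose groups, 4 bulb groups, the 2 chambers, and noses with bulbs of the transection series. P-values were adjusted by Benjamini-Hochberg over all genes that passed the filter, and an adjusted p under 0.05 was a call. SE is the absolute log2 fold change over the square root of F. The code was checked on simulated counts. Alternatives were RLE factors, no count filter, DESeq2 1.42.0, 1 model of all 39 libraries, each library left out, and, chosen after seeing the data, the TPM ratio. A replicate block was added between chambers. Fits with the 2 homeologs of each member summed were also run, and their results are not given here.

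The members and gene lists were chosen with earlier results of these data known. List genes were named where called, at 5 CPM or more, with groups not overlapping, up to 4 of the largest changes per list and comparison, and a subset of these is printed. No transcript sequence was used here.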

Additional observations from a re-analysis of the deposited data

Results flagged for a closer look

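For these receptor copies the response to transection differed between nose and bulb by a test of the difference itself, nose minus bulb on the log2 scale. The copies erbb2.L, erbb2.S and erbb3.L gave positive differences at 2 days, of 0.64 (adjusted p = 0.0119), 0.96 (adjusted p = 0.00274) and 1.10 (adjusted p = 0.00167). At 1 week the same copies gave 0.84 (adjusted p = 0.000857), 1.26 (adjusted p = 0.000119) and 1.38 (adjusted p = 9.83e-05). At 7 weeks erbb2.S gave 0.63 (adjusted p = 0.0226) and erbb3.L 0.91 (adjusted p = 0.00324). The copy erbb4.S gave negative differences of -1.09 at 2 days (adjusted p = 0.0139), -1.08 at 1 week (adjusted p = 0.0093) and -0.98 at 7 weeks (adjusted p = 0.0142). The copy erbb3.S gave -1.92 at 7 weeks (adjusted p = 0.0188), on 18, 94 and 7 reads in 7-week noses and 10, 16 and 14 in untreated bulbs. All of these differences use the same 3 untreated nose and 3 untreated bulb libraries.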

How the results depend on the processing

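Of 119 tested member differences, 48 were called, 30 of them under every tested alternative that kept the homeologs apart, and 18 ended under at least 1. No called difference changed direction under a tested alternative. Of the 71 not called, 23 changed sign and 13 were called under at least 1 alternative. With single libraries left out, the number of members called ran from 1 to 4 for adult against larval nose (4 with all), 1 to 3 for 2-day bulbs (3), 0 to 1 for 7-week against 1-week bulbs (0), 1 to 2 for 2-day noses (2), 1 to 2 for 1-week noses (2), 2 to 5 for 7-week noses (3), 0 to 1 between doses (1), 1 to 2 for dose 1000 (1), 0 to 2 for dose 200 (2) and 0 to 1 between chambers (1). The number ran from 4 to 5 for 7-week bulbs (5) and from 2 to 3 for 7-week against 1-week noses (2). For nose minus bulb it ran from 3 to 4 at 2 days (4), 4 to 5 at 1 week (4) and 3 to 5 at 7 weeks (4). It stayed at 4 for 1-week bulbs and at 6 for noses against bulbs. A model of all 39 libraries gave 0 between doses, 2 for dose 1000, 0 for dose 200 and 2 between chambers. Between doses RLE factors gave 0 and DESeq2 gave 2. The cause of these moves was not tested.

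On the TPM ratio the sign turned for erbb3.L in 7-week noses (-0.26), for erbb4.S in 7-week bulbs (-0.20) and for nrg3.S between 7-week and 1-week bulbs (-0.12). For nrg3.S between chambers the values with 1 library left out ran from -0.28 to 1.78. Over all genes, 6899 calls in 2-day noses became 4336 without control library 3, 4411 without 2-day library 2 and 3888 without 2-day library 3. Calls between chambers were 4768, against 1999, 2646 and 2467 without principal cavity library 1, library 3 or VNO library 2, and 13486 in a model of all 39 libraries. Calls between doses were 9193, against 5952 without dose-1000 library 3, and 60.8% of them were higher at dose 1000, against 49.9% with DESeq2. Calls between 7-week and 1-week bulbs were 12240, against 7506 in a model of all 39 libraries. A replicate block by column number, which alone pairs no samples, left 1 called member between chambers and 4854 called genes.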
